A study of Mus musculus with 27 samples.

Results

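Cathepsins are the proteases of the lysosome, and this account follows 10 genes of the family, Ctsa, Ctsb, Ctsc, Ctsd, Ctsh, Ctsk, Ctsl, Ctss, Ctsw and Ctsz, in NMuMG cells during EMT (epithelial-mesenchymal transition). NMuMG cells are an epithelial line from normal mouse mammary gland, which undergoes EMT when given the growth factor TGF-β. The genes were taken by name from 24247 genes listed in the shRNA RNA-seq table and 23295 in the parental one, and they were chosen by the parental FPKM values, because Ctsw has the largest rise under TGF-β there (rank 1 of 11309 genes at 24 h). Parental values of the 10 genes are therefore given as a description without p-values, and the tests come from cells carrying shRNAs of the same line under the same treatment.

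RNA was measured in 18 libraries, 2 per group. Parental NMuMG cells were untreated (0 h) or received TGF-β for 8 h or 24 h (6 libraries), and the same 3 time points were taken in cells infected with lentivirus carrying an irrelevant control shRNA (6 libraries) or an shRNA against lamin B1, called KD below (6 libraries). TGF-β was given at 1 to 5 ng/ml according to the labels, and the control and KD cells share the infection, so their untreated groups are not untouched cells. Lamin B1 ChIP-seq and ATAC-seq of parental cells gave 1 library per time point each, without replicates, and each ChIP library pools parallel ChIPs made on a euchromatin fraction. Hi-C was not analysed here. The methods call the RNA libraries biological replicates, without saying that they came from separate cultures, so p-values measure the spread between these libraries.

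Most cathepsins are made as inactive proenzymes, tagged with mannose 6-phosphate in the Golgi, carried to the acidic lysosome by mannose 6-phosphate receptors and cut there into active enzymes. They differ in the residue that cleaves the peptide: Ctsl, Ctsb, Ctsk, Ctss, Ctsh, Ctsc, Ctsz and Ctsw are papain-like cysteine proteases, Ctsd is an aspartic protease and Ctsa a serine carboxypeptidase. Cystatins and stefins inhibit the cysteine members, and several members can be secreted and cleave extracellular matrix. Ctsw is known from cytotoxic lymphocytes, Ctsk from osteoclasts and Ctss from antigen-presenting cells.

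The sequences shown here belong to the members whose loci the results turn on. On mm9, Ctsw lies at chr19:5465240-5468498 on the minus strand (10 exons, 3259 bp), and the ATAC list of 24 h holds 1 peak inside it. The 300 bases at the centre of that peak, chr19:5466863-5467162 read from the minus strand, contain exon 3 in capitals between intronic bases in lower case.
Ctsw ATAC peak centre: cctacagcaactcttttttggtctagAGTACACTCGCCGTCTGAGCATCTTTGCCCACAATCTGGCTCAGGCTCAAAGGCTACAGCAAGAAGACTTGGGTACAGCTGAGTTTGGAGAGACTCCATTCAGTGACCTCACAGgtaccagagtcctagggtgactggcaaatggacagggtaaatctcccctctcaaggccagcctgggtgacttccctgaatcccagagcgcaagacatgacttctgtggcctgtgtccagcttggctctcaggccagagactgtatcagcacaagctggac
For 7 of the 10 members a RefSeq promoter window (GRCm38.p6, 250 bases before to 50 after the start) could be matched once each to mm9. Ctsw, Ctsb and Ctsh had none. These RefSeq starts differ in part from the gene starts used for the peaks below, which are chr13:64471614 for Ctsl and chr7:149573943 for Ctsd. For Ctsa the gene start is chr2:164658373, and 1 of its 2 windows (chr2:164659023-164659322) lies past it. The bases before the start are printed for Ctsl (chr13:64471829-64472078, minus strand) and Ctsz (chr2:174264541-174264790, minus strand), the members that rose and fell most after Ctsw in control cells at 24 h. For Ctsd (chr7:149573944-149573982, minus strand) only the 39 bases outside its annotated exons are given. Capitals mark CACGTG, the core of the E-box known as the CLEAR element of lysosomal genes.
Ctsl upstream: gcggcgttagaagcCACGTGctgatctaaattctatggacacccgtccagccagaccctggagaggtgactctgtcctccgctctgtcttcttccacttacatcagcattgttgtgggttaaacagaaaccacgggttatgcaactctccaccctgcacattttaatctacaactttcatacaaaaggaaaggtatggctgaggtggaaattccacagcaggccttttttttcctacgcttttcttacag
Ctsd upstream: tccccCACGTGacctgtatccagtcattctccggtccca
Ctsz upstream: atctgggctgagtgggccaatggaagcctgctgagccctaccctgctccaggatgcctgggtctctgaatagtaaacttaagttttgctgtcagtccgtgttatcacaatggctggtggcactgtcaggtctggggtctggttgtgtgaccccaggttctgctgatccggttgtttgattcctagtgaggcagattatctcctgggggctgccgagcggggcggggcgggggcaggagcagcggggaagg
The search covered both strands, and CACGTG reads the same on both. It was found in windows of 3 of the 7 members, at position 15 of the Ctsl window, at positions 6 and 153 of the Ctsd window and at positions 239 and 256 of one of the 2 Ctsa windows, counted from the far end. Of all 32851 RefSeq windows of this length, 7.15% held it, a share per window and not per gene. The Ctsa window that held it is the one past the gene start. The AP-1 motif TGACTCA, in 5.20% of all windows, and the SMAD palindrome GTCTAGAC, in 0.213%, were in none of the 7 members' windows, and the shorter SMAD motif CAGACA, in 21.0%, was in that of Ctsk alone. None of these motifs was in the printed Ctsw bases, while 34.0% of the centres of the 33811 ATAC peaks of 24 h held TGACTCA and 27.9% CAGACA. These are matches of letters in these windows and no statement about binding.

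The labels were checked on the RNA before the members were compared. Lmnb1, the targeted gene, stood at 29.2 and 36.5 FPKM (fragments scaled by transcript length and by the number mapped in the library) in untreated control cells and at 9.01 and 9.27 FPKM in KD cells, and it was lower in every KD library than in every control library at each time point (log2 differences of -1.73 at 0 h, -1.90 at 8 h and -1.50 at 24 h). The epithelial keratins Krt8 and Krt18 were among the abundant transcripts of every library, while the epithelial marker Epcam was low, with group means of 0.17 to 2.98 FPKM. Cdh1 fell by 2.02 and Fn1 rose by 3.91 on the log2 scale in control cells at 24 h. The mesenchymal Cdh2 was called higher there too, but so were 2 epithelial markers. These were Krt8 (means of 2562 FPKM untreated and 3132 FPKM at 24 h) and Epcam (0.220 and 0.622 FPKM). Epcam was under 1 FPKM in every control library of 0 h and 24 h. It passed the filter on low values only through control libraries of 8 h and KD libraries of 8 h and 24 h. The mesenchymal marker Vim was not called there (1313 and 1450 FPKM). In parental cells at 24 h Vim was called lower (1366 and 1182 FPKM). The tables give no read counts. Relative depth, read from the smallest values, ran from 79.1% to 112% of the first shRNA library, and the lowest correlation between replicates was 0.960, in KD cells at 24 h.

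Ctsw went from barely detectable to one of the more abundant cathepsins. In parental cells the 2 libraries read 0.811 and 0.751 FPKM untreated, 34.5 and 26.9 FPKM at 8 h, then 104.6 and 100.6 FPKM at 24 h, which is a log2 difference of 4.14 ± 0.10 (SE) and then 5.86 ± 0.10. The steps did not overlap. In control shRNA cells Ctsw stood at 0.336 and 0.759 FPKM untreated, 33.9 and 34.4 FPKM at 8 h, then 93.5 and 95.5 FPKM at 24 h. The KD cells gave 0.377 and 0.387 FPKM, then 30.98 and 30.96 FPKM, then 89.95 and 121 FPKM. All treated libraries were above all untreated ones in both backgrounds.

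On the scale of log2(FPKM + 1), Ctsw rose by 4.52 ± 0.14 (SE) in control cells at 8 h (limma, adjusted p = 4.37e-08) and by 5.96 ± 0.14 at 24 h (adjusted p = 5.20e-09). The added 1 understates the change of a gene that starts under 1 FPKM: the means differed 62.4-fold at 8 h and 172.7-fold at 24 h. These folds rest on 2 untreated values that differ, and with either one alone they were 101.5 and 45.0 at 8 h, and 281 and 125 at 24 h. The step from 8 to 24 h was itself 1.44 ± 0.14 (adjusted p = 6.75e-05). In KD cells the rises were 4.53 ± 0.14 (adjusted p = 3.47e-08) and 6.25 ± 0.14 (adjusted p = 3.61e-09). Ctsw was under 1 FPKM in every untreated library, so it passed the filter on low values only through the treated libraries where it is high, and it was chosen for its rise in parental cells. It is 1 of the members counted higher against untreated cells below.

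No difference between KD and control cells passed the test for Ctsw. The log2 difference between KD and control cells was -0.15 ± 0.14 before treatment (limma, adjusted p = 0.511), -0.14 ± 0.14 at 8 h (adjusted p = 0.499) and 0.14 ± 0.14 at 24 h (adjusted p = 0.494), and the value at 8 h passed only in a fit of these 2 groups alone (adjusted p = 0.0158). Its response to TGF-β differed between KD and control cells by 0.01 ± 0.20 at 8 h (adjusted p = 0.983) and by 0.29 ± 0.20 at 24 h (adjusted p = 0.419). A p that misses the threshold does not show that the levels were equal. The replicates overlapped between KD and control cells at 0 h and 24 h, where the second KD library of 24 h (121 FPKM) was the highest of all 18.

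**Figure D1:**
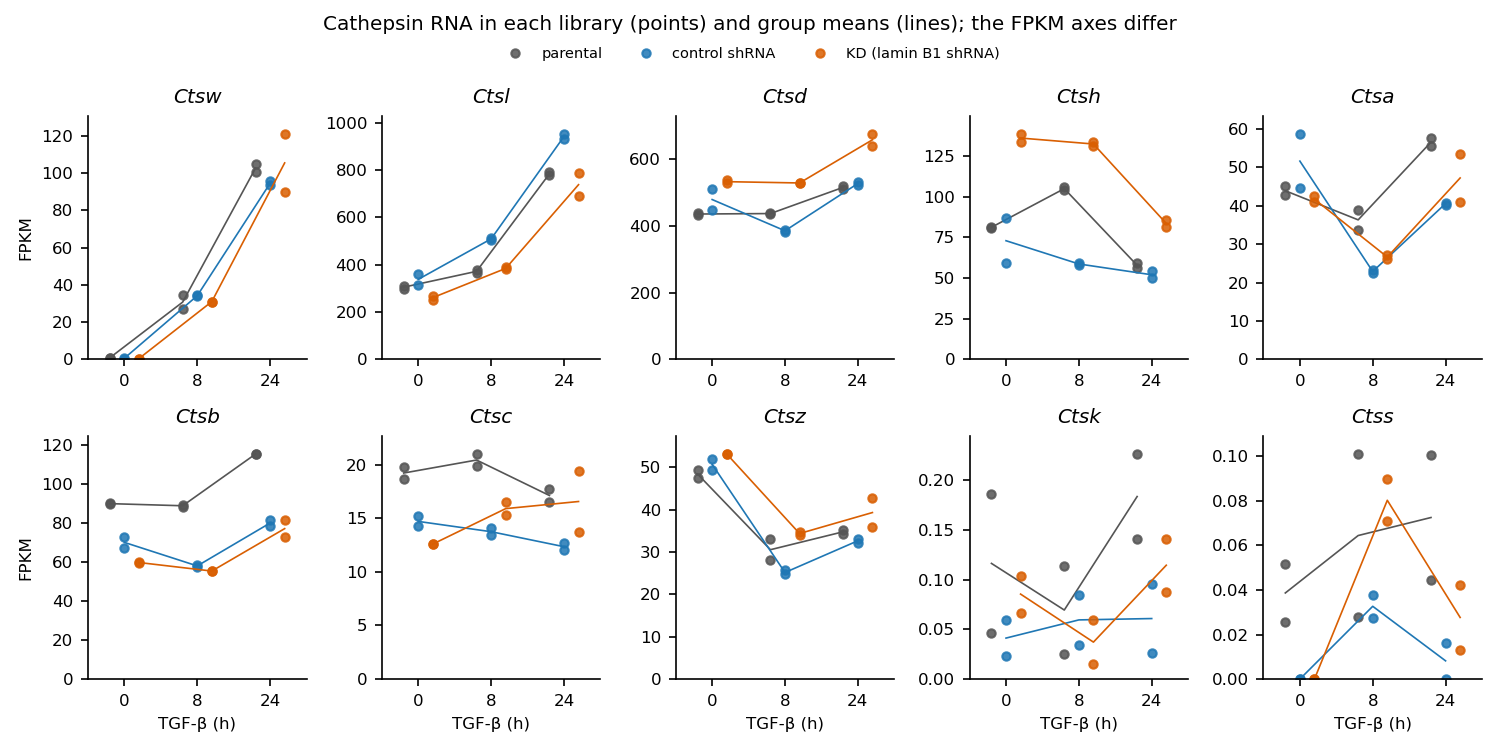
FPKM of each of the 10 cathepsins in every RNA library (vertical axis, linear, with its own scale in each panel) at 0, 8 and 24 h of TGF-β (horizontal axis, evenly spaced) for parental, control shRNA and lamin B1 KD cells; each point is 1 library and lines join the group means. Ctsw climbs from under 1 FPKM to 89.95 to 121 FPKM at 24 h in all 3 kinds of cells, the means of Ctsl rise 2.57- to 2.83-fold, and Ctsk and Ctss reach at most 0.226 FPKM.

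Markers of the cells in which Ctsw is best known did not appear beside it. The 11 lymphocyte markers (Ptprc, Cd3e, Cd3g, Cd8a, Nkg7, Prf1, Gzma, Gzmb, Klrd1, Klrb1c and Ncr1) summed to 0.0458 to 0.172 FPKM in every library, none reached 1 FPKM in any, and Gzma and Klrd1 were listed at 0 in all 18. Osteoclast markers summed to at most 0.0946 FPKM. Of the macrophage markers, Cd14 made up nearly all of the sum, at 21.9 to 159.8 FPKM, and that sum fell while Ctsw rose: in control cells it was 84.9 to 96.5 FPKM untreated, 48.7 to 49.1 FPKM at 8 h and 24.3 to 24.9 FPKM at 24 h. Cd68 stayed at 0.97 to 1.93 FPKM and Csf1r at no more than 1.02 FPKM. Whether the Cd14 signal has a part in the members' levels was not tested. In bulk RNA, more cells expressing a gene and more RNA per cell cannot be told apart.

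Prss46, Thbs1, Lgr6 and Angptl2 had the patterns most like that of Ctsw over the 12 shRNA libraries, among 968 tested genes whose log2 values spanned at least 2, with Pearson r from 0.996 to 0.997. The points share the same libraries and groups, so the values are a description. In the 6 parental libraries, which did not enter the ranking, r was 0.998 for Angptl2, 0.983 for Thbs1, 0.978 for Lgr6 and 0.936 for Prss46. Thbs1, which encodes the matrix protein thrombospondin, had control means of 12.1, 151 and 531 FPKM in the order of time. Angptl2, a secreted angiopoietin-like protein, had 2.29, 29.3 and 48.0 FPKM.

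Around Ctsw on chromosome 19, the genes that lay within 50 kb moved in different directions in control cells at 24 h. Fibp, which ends 189 bp from the end of Ctsw on the opposite strand, had a log2 difference of -0.14 (limma, adjusted p = 0.0609). Efemp2, which encodes the extracellular matrix protein fibulin-4 and starts 5475 bp upstream of Ctsw in the other orientation, rose by 1.27 (adjusted p = 8.02e-07). Fosl1, an AP-1 subunit 9295 bp away, fell by 0.72 (adjusted p = 0.00356). The others tested had log2 differences between -0.51 for Ccdc85b and 0.35 for Cfl1.

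Ctsl, a broad endopeptidase of the lysosome that is also secreted, was the other member with a large rise. Its parental libraries read 311 and 299 FPKM untreated, 378 and 366 FPKM at 8 h, then 777 and 791 FPKM at 24 h. Control cells gave 315 and 361 FPKM, then 506 and 512 FPKM, then 932 and 953 FPKM. In KD cells the values were lower at each time point, at 252 and 269 FPKM, then 388 and 380.3 FPKM, then 786 and 691 FPKM. No KD library reached the lower of the 2 control libraries of its time point.

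In control cells Ctsl rose by 0.59 ± 0.08 (SE, log2) at 8 h (limma, adjusted p = 1.43e-04) and by 1.48 ± 0.08 at 24 h (adjusted p = 2.85e-07), a 2.79-fold difference of means. KD cells rose by 1.496 ± 0.08 at 24 h (adjusted p = 2.37e-07), so the response differed by 0.02 ± 0.11 (adjusted p = 0.937). The lower level in KD cells measured -0.37 ± 0.08 untreated (adjusted p = 0.0113), -0.41 ± 0.08 at 8 h (adjusted p = 0.00396) and -0.35 ± 0.08 at 24 h (adjusted p = 0.0099), or 1.30-, 1.33- and 1.28-fold lower means. With quantile normalization, which forces the same distribution on every library, the adjusted p was 0.068 at 0 h and 0.0576 at 8 h. In limma fits of the compared groups alone it was 0.0526 at 0 h and 0.0668 at 24 h. Without KD 0 h replicate 1 it was 0.0919 at 0 h, and without control 24 h replicate 1 or 2 it was 0.0529 or 0.0621 at 24 h.

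Ctsd, the main aspartic protease of lysosomes, was the most abundant member in untreated cells and changed little. Parental libraries held 437 and 433 FPKM untreated, 439 and 434 FPKM at 8 h, then 511 and 520 FPKM at 24 h. Control cells went from 511 and 446 FPKM to 381 and 388 FPKM at 8 h, then 530.5 and 523 FPKM at 24 h, whereas KD cells stood at 537 and 528, then 528 and 529, then 675 and 640.2 FPKM. Control libraries of 8 h lay below both untreated ones, while the libraries of 0 and 8 h overlapped in parental and in KD cells.

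The fall of Ctsd in control cells at 8 h was 0.31 ± 0.06 on the log2 scale (limma, adjusted p = 0.00164), against -0.01 ± 0.06 in KD cells (adjusted p = 0.884), but the difference between these responses, 0.30 ± 0.08, did not pass (adjusted p = 0.0872). At 24 h Ctsd rose by 0.30 ± 0.06 in KD cells (adjusted p = 0.00144) and the value in control cells was 0.14 ± 0.06 (adjusted p = 0.0593). KD cells were higher than control cells by 0.46 ± 0.06 at 8 h (adjusted p = 7.53e-04) and by 0.32 ± 0.06 at 24 h (adjusted p = 0.00567), the latter with an adjusted p of 0.0772 after quantile normalization. Without control 0 h replicate 2, the difference in response at 8 h became 0.40 and passed (adjusted p = 0.00689).

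**Figure D2:**
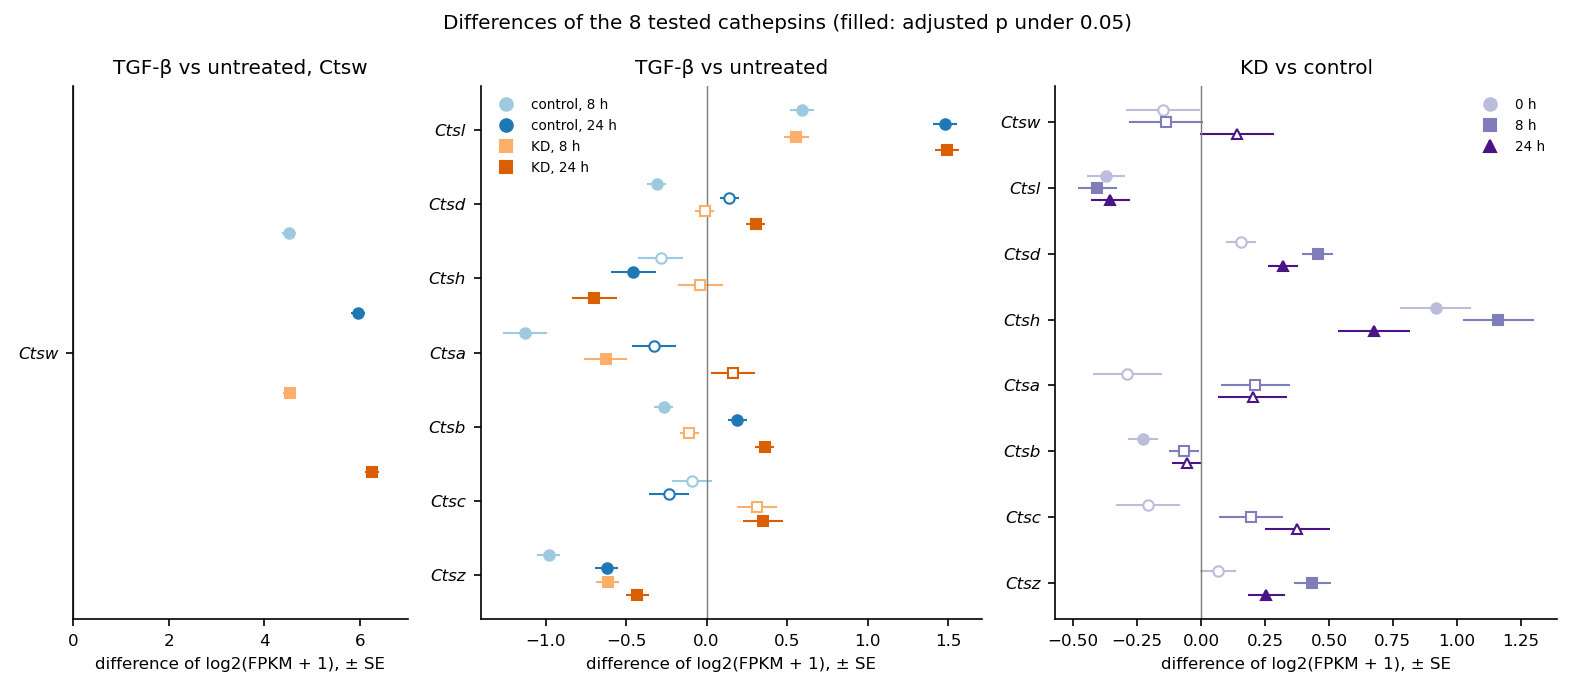
Log2 differences of the 8 tested cathepsins (rows) on the scale of log2(FPKM + 1) (horizontal axes, bars are ± 1 SE) for Ctsw under TGF-β, for the other members under TGF-β, and for lamin B1 KD against control cells at 0, 8 and 24 h; filled points have an adjusted p under 0.05. Ctsw lies between 4.52 and 6.25 against untreated cells of the same kind, and in KD against control cells Ctsh lies above 0 and Ctsl below 0 at each time point.

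Ctsh, an aminopeptidase, showed the largest difference between KD and control cells among the members. Control libraries held 86.9 and 59.0 FPKM untreated, 59.3 and 58.0 FPKM at 8 h, then 54.1 and 49.9 FPKM at 24 h. KD libraries held 139 and 134 FPKM, then 134 and 131 FPKM, then 85.8 and 81.4 FPKM. Parental libraries held 81.4 and 81.1 FPKM untreated, 105.9 and 104.2 FPKM at 8 h, then 56.2 and 59.4 FPKM at 24 h. The gap between the untreated control libraries was wider than in any other pair for this gene.

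KD cells exceeded control cells for Ctsh by 0.92 ± 0.14 (SE, log2) untreated (limma, adjusted p = 0.00344), by 1.16 ± 0.14 at 8 h (adjusted p = 5.32e-04) and by 0.68 ± 0.14 at 24 h (adjusted p = 0.00899), which are 1.87-, 2.26- and 1.61-fold differences of means. Of 11450 tested genes, Ctsh ranked 76, 65 and 201 by its rise in KD cells at these times. Without control 24 h replicate 2 the last value had an adjusted p of 0.0617. TGF-β lowered Ctsh at 24 h, by 0.46 ± 0.14 in control cells (adjusted p = 0.0166) and by 0.70 ± 0.14 in KD cells (adjusted p = 0.00171). The value in control cells lost its call under quantile normalization (adjusted p = 0.0753), in a fit of the 2 groups alone (adjusted p = 0.0761) and without control 24 h replicate 2 (adjusted p = 0.0866). At 8 h the log2 difference in control cells was -0.28 (adjusted p = 0.105), and without control 0 h replicate 2 it was -0.56 (adjusted p = 1.04e-04).

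Ctsz, a carboxypeptidase also called cathepsin X, was the only member called lower at both times in control and in KD cells. Its control libraries went from 52.0 and 49.5 FPKM to 24.7 and 25.7 FPKM at 8 h, then 32.2 and 33.1 FPKM at 24 h. KD libraries went from 53.2 and 53.2 FPKM to 34.6 and 34.1 FPKM and then 35.8 and 42.8 FPKM. Parental libraries showed 49.4 and 47.4, 28.1 and 33.0, and 34.3 and 35.3 FPKM. Treated libraries lay below all untreated ones in each kind of cell.

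On the log2 scale Ctsz fell by 0.98 ± 0.07 (SE) at 8 h in control cells (limma, adjusted p = 4.82e-06) and by 0.62 ± 0.07 at 24 h (adjusted p = 5.39e-05). In KD cells it fell by 0.61 ± 0.07 (adjusted p = 6.69e-05) and 0.43 ± 0.07 (adjusted p = 5.31e-04). KD minus control was 0.07 ± 0.07 in untreated cells (adjusted p = 0.555), and KD cells were higher by 0.43 ± 0.07 at 8 h (adjusted p = 0.0023) and by 0.26 ± 0.07 at 24 h (adjusted p = 0.0289). With no filter on low values, this difference at 24 h had an adjusted p of 0.0509, and in a limma fit of these 2 groups alone 0.166. The value at 24 h did not pass without any one of 3 libraries, control 24 h replicate 1 (adjusted p = 0.144) or replicate 2 (adjusted p = 0.0947) and KD 24 h replicate 2 (adjusted p = 0.0643). The difference in response was 0.37 ± 0.10 at 8 h (adjusted p = 0.0831) and 0.19 ± 0.10 at 24 h (adjusted p = 0.296).

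Ctsa, the serine carboxypeptidase that also protects β-galactosidase and neuraminidase in the lysosome, was lowest at 8 h. Control libraries held 58.7 and 44.6 FPKM untreated, 22.4 and 23.4 FPKM at 8 h, then 40.8 and 40.3 FPKM at 24 h. KD libraries held 42.5 and 41.0, then 27.1 and 26.2, then 41.1 and 53.5 FPKM. In parental cells the dip was smaller, from 45.1 and 42.7 FPKM to 33.7 and 39.0 FPKM, with 55.6 and 57.7 FPKM at 24 h.

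In control cells Ctsa fell by 1.13 ± 0.13 (SE, log2) at 8 h (limma, adjusted p = 1.01e-04), the largest fall of any member, and rose by 0.80 ± 0.13 from 8 to 24 h (adjusted p = 0.00129). At 24 h both libraries were still below both untreated ones, with a log2 difference of -0.33 ± 0.13 that did not pass (adjusted p = 0.0547), while without control 0 h replicate 2 it was -0.52 and passed (adjusted p = 0.00738). KD cells fell by 0.63 ± 0.13 at 8 h (adjusted p = 0.00285). KD and control cells differed by -0.29 ± 0.13 untreated (adjusted p = 0.17), 0.21 ± 0.13 at 8 h (adjusted p = 0.254) and 0.20 ± 0.13 at 24 h (adjusted p = 0.288). Leaving out control 0 h replicate 2, the lower of its pair, gave a difference in response of 0.69 at 8 h (adjusted p = 0.0343) against 0.50 ± 0.19 with all libraries (adjusted p = 0.181).

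Ctsb, which acts as both an endopeptidase and a carboxypeptidase, moved within a narrow range. Control libraries held 72.8 and 67.2 FPKM untreated, 58.5 and 57.4 FPKM at 8 h, then 78.2 and 81.6 FPKM at 24 h. KD libraries held 59.8 and 59.5, then 55.3 and 55.4, then 72.5 and 81.5 FPKM, and parental ones 90.1 and 89.6, 88.2 and 89.3, and 115.1 and 115.3 FPKM. In control cells it fell by 0.27 ± 0.06 (SE, log2) at 8 h (limma, adjusted p = 0.00352) and stood 0.19 ± 0.06 higher at 24 h than untreated (adjusted p = 0.0171). In KD cells it rose by 0.36 ± 0.06 at 24 h (adjusted p = 4.79e-04). Untreated KD cells were lower than control cells, with a log2 difference of -0.22 ± 0.06 (adjusted p = 0.0293), with an adjusted p of 0.0596 after quantile normalization and of 0.107 to 0.136 without control replicate 1 or either KD replicate. The rise in control cells at 24 h likewise did not pass without replicate 2 of control 0 h (adjusted p = 0.107) or of control 24 h (adjusted p = 0.101).

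Ctsc, the dipeptidyl peptidase that activates granule serine proteases in immune cells, was the lowest of the members with steady expression. It stood at 15.2 and 14.2 FPKM in untreated control cells, 13.4 and 14.1 FPKM at 8 h, then 12.01 and 12.7 FPKM at 24 h, and at 12.6 and 12.6, 16.5 and 15.3, and 13.7 and 19.4 FPKM in KD cells. Parental libraries held 16.5 to 21.0 FPKM. No change in control cells passed in the fit of all libraries, with log2 differences of -0.09 ± 0.13 at 8 h (limma, adjusted p = 0.551) and -0.23 ± 0.13 at 24 h (adjusted p = 0.126). In limma fits of the 2 compared groups alone Ctsc was lower at 24 h than untreated (adjusted p = 0.0199) and than at 8 h (adjusted p = 0.028). The rise of 0.35 ± 0.13 in KD cells at 24 h (adjusted p = 0.0326) rested on the second KD library, without which it was 0.11 (adjusted p = 0.145), and it also did not pass without either untreated KD library (adjusted p = 0.101 and 0.0969).

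Ctsk and Ctss were near 0 in these cells. Ctsk ranged from 0.0150 to 0.141 FPKM in the shRNA libraries and from 0.0250 to 0.226 FPKM in the parental ones. Ctss reached 0.0896 FPKM at most in the shRNA libraries and was listed at 0 in all 4 untreated ones and in the second control library of 24 h. Both were under the filter of 1 FPKM in 2 libraries and were not tested, so 8 of the 10 members passed it. They are neighbours on chromosome 3, with 17424 bp between them.

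Because FPKM is scaled by transcript length, the levels of different members can be set in order. In untreated control cells the order of the means was Ctsd (479 FPKM ± 45.9, SD, n = 2), Ctsl (338 ± 31.9), Ctsh (73.0 ± 19.7), Ctsb (69.98 ± 3.98), Ctsa (51.7 ± 9.99), Ctsz (50.7 ± 1.75), Ctsc (14.7 ± 0.668) and Ctsw (0.547 ± 0.299). Ctsh and Ctsb could not be separated by their libraries, nor could Ctsa and Ctsz. At 24 h the order was Ctsl (942 ± 14.9), Ctsd (527 ± 5.49), Ctsw (94.5 ± 1.45), Ctsb (79.9 ± 2.39), Ctsh (52.0 ± 2.94), Ctsa (40.6 ± 0.353), Ctsz (32.7 ± 0.638) and Ctsc (12.3 ± 0.465), and the libraries of neighbours did not overlap. The sum over the 10 members went from 1042 to 1112 FPKM in the untreated control libraries to 1773 to 1789 FPKM at 24 h, and from 1096 to 1097 FPKM to 1731 to 1800 FPKM in KD cells. Ctsd and Ctsl together made up 71.8% to 82.5% of it in every library, and the share of Ctsw went from 0.030% to 0.078% untreated to 5.0% to 7.0% at 24 h. The sums over the members are not corrected for the total FPKM of each library, which also differed. In control cells that total was 666922 and 650986 untreated and 844665 and 752833 at 24 h. The 10 highest genes held 16.9% and 14.5% of it untreated and 40.4% and 29.9% at 24 h. In KD cells the total was 600578 and 611575, then 699130 and 910348.

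The counts of members called are read against the share of all tested genes that pass. In control cells at 8 h, 2 of the 8 tested members were higher (19.4% of all genes) and 4 lower (44.9% of all genes), and 64.3% of all 11450 genes passed in either direction. At 24 h 3 were higher (25.5%) and 2 lower (45.1%), with 70.7% of all genes called. From 8 to 24 h 6 were higher (25.2%) and 0 lower (24.5%), and 49.7% of all genes passed. A fit of these 2 groups alone called 6 higher and 2 lower (Ctsc and Ctsh), beside 3679 higher and 3459 lower of 10899 genes. KD cells showed 2 higher (23.0%) and 2 lower (44.8%) at 8 h, while at 24 h 5 were higher (28.6%) and 2 lower (43.3%), with 67.8% and 71.9% of all genes called. The median over the 8 members from 8 to 24 h in control cells was 0.45, beside 0.01 over all genes. In the parental fit, 3 members were called higher and 2 were called lower at 8 h (54.5% of all genes called), while at 24 h 5 were higher (33.4% of all genes) and 3 lower (37.1%), with 70.5% called. Nothing is read from these parental counts, since that contrast chose the genes.

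All genes together shifted down under TGF-β in this scaling, with median log2 differences of -0.14 at 8 h and -0.13 at 24 h in control cells and -0.13 and -0.10 in KD cells. Relative to that median, the falls in control cells at 8 h were -0.99 for Ctsa, -0.84 for Ctsz, -0.17 for Ctsd and -0.12 for Ctsb, and the rise of Ctsb at 24 h was 0.32. Quantile normalization brought the share of higher genes among all calls from 30.2% to 46.0% at 8 h and from 36.1% to 49.99% at 24 h in control cells, and from 33.9% to 46.0% and 39.8% to 50.1% in KD cells. The calls of Ctsw, Ctsl, Ctsz, Ctsa, Ctsd and Ctsb at 8 h in control cells held there with the same directions.

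Between KD and control cells 3 members were called untreated and 4 at each later time. Untreated, 1 was higher (Ctsh, 10.6% of all genes higher) and 2 lower (Ctsb and Ctsl, 9.09%), and 19.7% of all genes were called. At 8 h 3 were higher (Ctsd, Ctsh and Ctsz, 19.3%) and 1 lower (Ctsl, 16.5%), with 35.8% of all genes called, and at 24 h the same 4 members were called in the same directions (16.8% and 11.5%), with 28.3% called. The median of the members was -0.18 untreated, 0.20 at 8 h and 0.23 at 24 h, beside -0.01, 0.01 and 0.02 over all genes. For the difference in response to TGF-β, limma called 0 of the 8 members at 8 h and 0 at 24 h, where 4.06% and 4.72% of all genes passed (2.45% and 2.73% with a larger response in KD cells, 1.61% and 1.98% with a smaller one). At an unadjusted p under 0.05 there were 3 at 8 h (Ctsa, Ctsd and Ctsz) and 2 at 24 h (Ctsa and Ctsc). No other tool was run.

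Calls on the difference in response depended on single libraries. Without control 0 h replicate 2, Ctsa, Ctsd and Ctsh passed at 8 h (log2 differences of 0.69, 0.40 and 0.52) and Ctsa and Ctsd at 24 h (0.69 and 0.26). Without control 0 h replicate 1, Ctsh passed at 24 h in the other direction (-0.52). Without KD 24 h replicate 1, Ctsa, Ctsb, Ctsc and Ctsz passed at 24 h (0.68, 0.25, 0.82 and 0.31), and without KD 24 h replicate 2 Ctsc passed (0.35). Without KD 24 h replicate 1, KD cells at 24 h were also above control cells for Ctsc (0.62, adjusted p = 3.07e-04) and Ctsa (adjusted p = 0.043).

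Of 13 other cathepsin genes listed, 3 passed the filter, and all 3 were higher at 24 h in control cells, as were 25.5% of all genes. Ctse, an aspartic protease of endosomes, held 11.4 and 9.49 FPKM in untreated control cells and 27.6 and 26.2 FPKM at 24 h, and 61.3 and 53.0 FPKM in KD cells at 24 h. It rose by 1.29 at 24 h in control cells (limma, adjusted p = 1.43e-06) and was above control in KD cells by 0.54 untreated (adjusted p = 0.00386), 0.98 at 8 h (adjusted p = 1.23e-04) and 1.06 at 24 h (adjusted p = 1.45e-04). Ctsf fell by 0.75 at 8 h (adjusted p = 0.0103) and rose by 0.93 at 24 h (adjusted p = 0.00297), and Ctso rose by 0.44 at 24 h (adjusted p = 0.0105). Without control 0 h replicate 2 the rise of Ctso was 0.23. In untreated control cells Ctsf held 4.49 and 2.15 FPKM, and its fall at 8 h was -0.35 without the first of these libraries, -1.15 without the second and did not pass without control 8 h replicate 2 (adjusted p = 0.0532), while its rise at 24 h was 0.53 without the second. For both times against untreated cells, quantile normalization gave the same counts.

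Among 17 inhibitor genes (cystatins, stefins and the propeptide-like Ctla2a and Ctla2b), 4 passed the filter. Ctla2a, whose product resembles the propeptide of cysteine cathepsins and can inhibit them, held 8.83 and 7.99 FPKM in untreated control cells and 80.4 and 86.0 FPKM at 24 h, a log2 rise of 3.16 (limma, adjusted p = 2.25e-09). KD cells reached 169.6 and 153.2 FPKM at 24 h, above control by 0.95 (adjusted p = 7.62e-05). Ctla2b rose by 2.44 at 24 h (adjusted p = 1.44e-07). The 2 Ctla2 genes are near-identical copies whose reads can be split between them, so each value is uncertain. Cst3, the secreted inhibitor cystatin C, fell by 0.55 at 8 h (adjusted p = 6.70e-06) and by 0.57 at 24 h (adjusted p = 2.74e-06), the latter by 0.38 after quantile normalization. Against control, KD cells were higher for 1 of the 4 untreated, 3 at 8 h and all 4 at 24 h, and lower for none, beside 10.6%, 19.3% and 16.8% of all genes higher. With quantile normalization these counts were 1, 4 and 4. The untreated count was 2 without control replicate 1, 0 without KD replicate 2, and 0 higher with 1 lower without control replicate 2. The count at 8 h was 2 without replicate 1 of either group, and the count at 24 h was 3 without either control library.

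Of 10 genes for sorting and partner proteins, 9 were tested. At 8 h in control cells 7 were lower and 0 higher (6 and 1 with quantile normalization), beside 44.9% and 19.4% of all genes, with a median of -0.51 beside -0.14 over all genes. At 24 h 4 were higher, namely Psap (0.87, limma, adjusted p = 9.57e-06), Nagpa (0.82, adjusted p = 3.51e-06), Glb1 and Lgmn, and 4 were lower, namely Neu1, Igf2r, Gnptab and Gnptg, beside 25.5% and 45.1% of all genes. Psap encodes prosaposin, Nagpa the uncovering enzyme that finishes the mannose 6-phosphate tag, and Lgmn legumain, a protease that processes cathepsins. Neu1, the neuraminidase held in a complex with the Ctsa product, fell by 1.15 (adjusted p = 7.72e-06), and Igf2r, a mannose 6-phosphate receptor, fell by 0.52 (adjusted p = 0.00777). Without control 0 h replicate 2, 2 were higher. In KD against control cells, 19.7% of all genes were called untreated, and 19.3% and 16.8% were higher at 8 h and 24 h. Of the 9 genes here 0 were called untreated, 1 at 8 h (Gnptab) and 4 at 24 h, all higher. At 8 h it was 0 without either control library or the first KD library, and at 24 h the count was 0 without the first control library, 2 without the second control library and 6 without the first KD library.

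Of 32 other lysosomal genes, 31 were tested. In control cells at 8 h 21 were lower and 2 higher, beside 44.9% and 19.4% of all genes, with a median of -0.31 beside -0.14 over all genes, and with quantile normalization 16 were lower and 2 higher. Hexa, a subunit of β-hexosaminidase, held 28.1 and 21.0 FPKM untreated and 9.80 and 9.95 FPKM at 8 h, a log2 difference of -1.22. From 8 to 24 h 20 of them rose and 2 fell, beside 25.2% and 24.5% of all genes. At 24 h against untreated cells 9 were higher and 11 lower, beside 25.5% and 45.1% of all genes (13 and 8 with quantile normalization, 14 and 8 without control 0 h replicate 1, 6 and 12 without control 0 h replicate 2, and 6 and 7 without control 24 h replicate 1). The largest fall was that of the heparan sulfatase Sgsh, by 1.64 (limma, adjusted p = 2.29e-07), from 2.25 and 2.77 FPKM to 0.105 and 0.142 FPKM. Sgsh was under 1 FPKM in every treated shRNA library, so it passed the filter only through the untreated libraries where it is high. The largest rises were those of the cholesterol transporter Npc2 (0.72), the tetraspanin Cd63 (0.69) and Npc1 (0.50). Tfeb, the transcription factor that binds CLEAR elements, fell by 0.73 (adjusted p = 1.12e-04).

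Between KD and control cells the same list had 2 members higher and 2 lower when untreated, beside 10.6% and 9.09% of all genes. At 8 h 14 were higher and at 24 h 11, beside 19.3% and 16.8% of all genes. None was lower at these 2 times, beside 16.5% and 11.5% of all genes. Quantile normalization gave 12 and 10. The median was 0.18 at 8 h and 0.25 at 24 h, beside 0.01 and 0.02 over all genes. At 8 h the count was 6 to 8 without any one of the 4 libraries. At 24 h it was 5 without control replicate 1, 7 without control replicate 2 and 18 without KD replicate 1, and in untreated cells leaving out control replicate 2 gave 0 higher and 8 lower while either KD library left out gave 0 calls. Ids, iduronate sulfatase, showed the largest rise in KD cells at 8 h, from 12.7 and 13.5 FPKM in control to 26.2 and 26.5 FPKM in KD cells (0.96, limma, adjusted p = 7.99e-05). The response to TGF-β was larger in KD cells for 5 of the 31 at 8 h and 6 at 24 h, and smaller for none, beside 2.45% and 2.73% of all genes with a larger response. Without control 0 h replicate 2 these counts were 15 and 17, without control 0 h replicate 1 they were 4 and 3, and without any one other library the count at 8 h was 0 or 1. At 24 h it was 14 without KD replicate 1, 5 without KD replicate 2, and 1 without either control library of 24 h or either KD library of 0 h. Tfeb was 0.41 higher in KD cells at 8 h (adjusted p = 0.0101, and 0.0773 or 0.0611 without replicate 1 of control or KD cells) and 0.54 higher at 24 h (adjusted p = 0.00435).

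**Figure D3:**
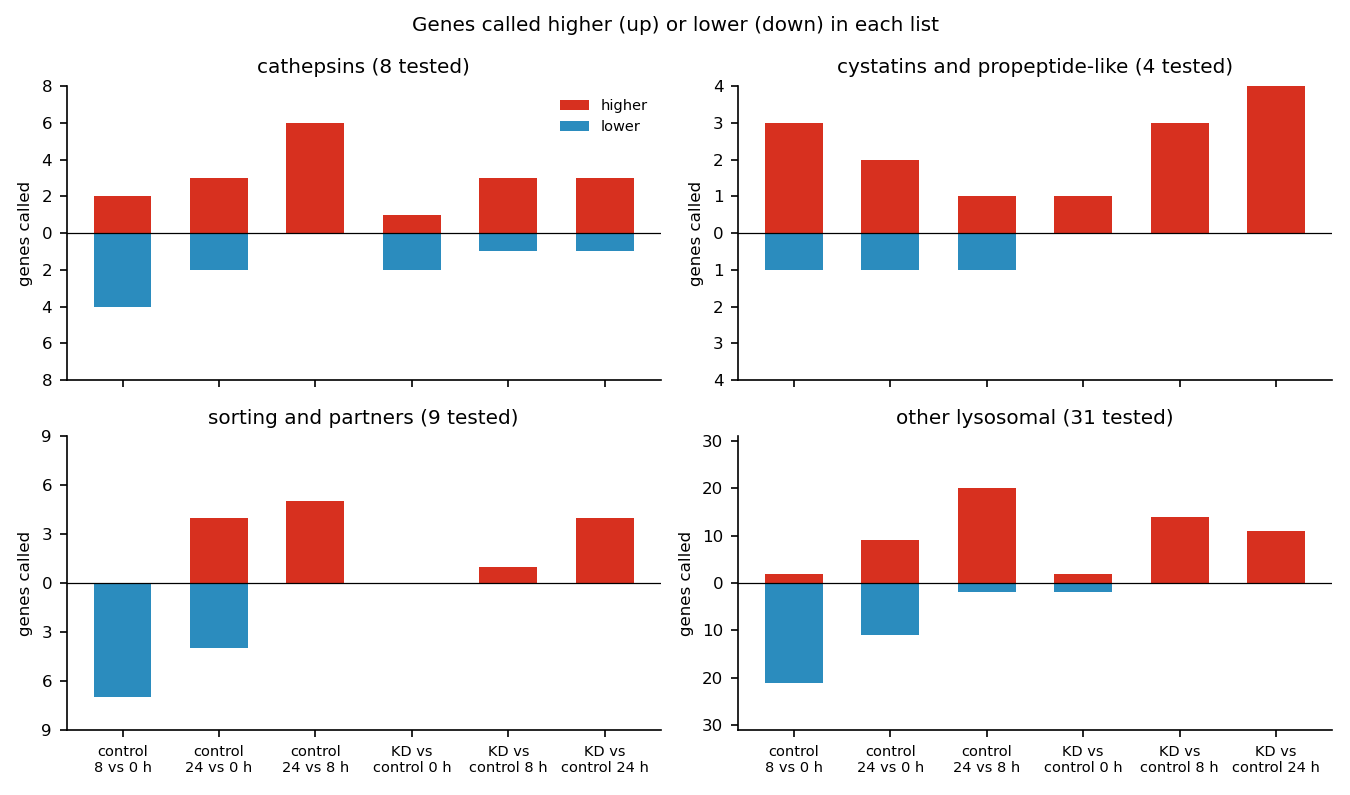
Number of tested genes called higher (above 0) or lower (below 0) at an adjusted p under 0.05 in the cathepsins, their inhibitors, the sorting and partner genes and the other lysosomal genes, for 6 contrasts of the shRNA libraries (horizontal axis); each list has its own vertical scale, up to the number tested. The other lysosomal genes have 21 lower at 8 h in control cells, 20 higher from 8 to 24 h, and none lower in KD against control cells at 8 and 24 h.

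Lamin B1 and ATAC peaks were placed on the members as the third readout. A gene was counted for lamin B1 when a peak overlapped it between 2500 bp upstream of its start and its end, and for ATAC when a peak overlapped the 500 bp on either side of the start. Lamin B1 peaks were found at 2 of the 10 members before treatment, 5 at 8 h and 2 at 24 h, where 19.7%, 38.6% and 29.2% of 21213 placed genes had one. ATAC peaks were at the starts of 4, 2 and 6 members, where 30.4%, 24.8% and 46.7% of genes had one. Each list comes from 1 library, and its length (9782, 10340 and 33811 ATAC peaks in the order of time) enters these counts. MACS scores are given below as the lists hold them and are not comparable between lists.

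Lamin B1 peaks overlapped Ctsw at 0 and 8 h and not at 24 h. In untreated cells a peak of 5034 bp, chr19:5462089-5467122, took in exons 3 to 10 and 57.8% of the gene (1883 bp). The larger part of this peak lay outside Ctsw, and it covered much of Fibp (chr19:5460637-5465051). Its score was 185.8, at or above that of 97.3% of the peaks in its list. At 8 h a shorter peak, chr19:5464607-5465716 (1110 bp, score 63.23), touched exons 9 and 10 and 14.6% of Ctsw (477 bp). Its score was low in its list, with 26.8% of peaks at or below it. It was not kept with lists of equal length or with peaks at or above the median score. This peak of 8 h also lay over the end of Fibp, and to which gene these peaks belong was not tested. At 24 h no lamin B1 peak touched Ctsw, and the nearest lay 5754 bp from its start. No ATAC peak lay in Ctsw untreated or at 8 h, and at 24 h one of 1175 bp, chr19:5466426-5467600 (score 72.85), covered exons 3 to 5 at 898 to 2072 bp past the start. Its score was in the lower part of its list, with 17.6% of peaks at or below it. The bases printed above are the centre of this peak, and they lie inside the lamin B1 peak of untreated cells apart from their upstream end.

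The start of Ctsw itself had neither kind of peak at any time. The nearest upstream peaks lay at the start of Efemp2, between 4827 and 8131 bp upstream of Ctsw in untreated cells and at 8 h in both assays. There the ATAC peak of 24 h was broader and began 3920 bp from the start of Ctsw (score 304.24). Whether these peaks bear on the RNA of Ctsw was not tested.

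**Figure D4:**
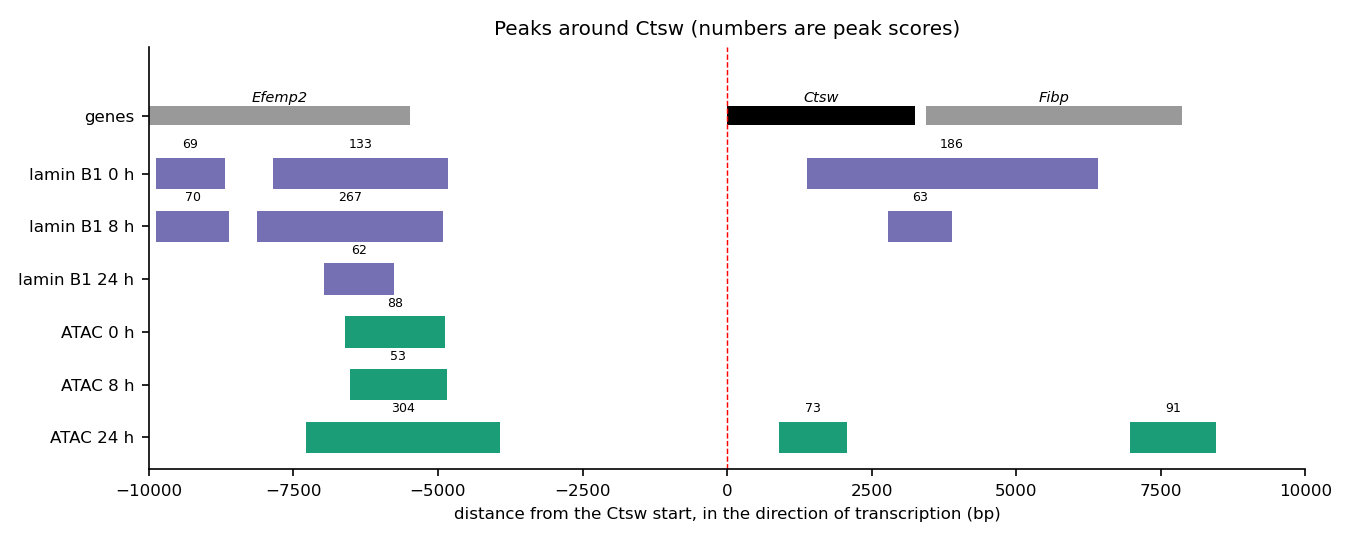
Lamin B1 and ATAC peaks (boxes, with MACS scores) and genes within 10 kb of the start of Ctsw at 0, 8 and 24 h; the horizontal axis is the distance from the start in bp, in the direction of Ctsw transcription. The lamin B1 peak that overlaps both Ctsw and Fibp is 5034 bp wide untreated, 1110 bp at 8 h and absent at 24 h. An ATAC peak then lies 898 to 2072 bp past the start.

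The other members had peaks mainly at their starts. Ctsd held a lamin B1 peak within 500 bp of its start at each time (scores 60.23, 59.82 and 95.12) and an ATAC peak over it at each time (154.75, 60.79 and 228.45), together with lamin B1 peaks at its 3′ end at 8 h (119.68) and 24 h (105.38 and 51.46). Ctsl had a lamin B1 peak over its start at 8 h only (119.0) and ATAC peaks there untreated (94.62) and at 24 h (543.44), the latter at or above 95.7% of its list. At 8 h, when the lamin B1 peak was there, the nearest ATAC peak to Ctsl was 17985 bp away. Ctsz had a lamin B1 peak over its start at 24 h (72.85) and no ATAC peak in the gene or at its start at any time.

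Ctsh, the member that differed most between KD and control cells, had no lamin B1 peak in parental cells at any time, the nearest lying 59265 bp away or more, and ATAC peaks at its start at all 3 times (53.48, 58.87 and 224.57). Ctsc had a lamin B1 peak over its start at 8 h (67.4) and an ATAC peak there at 24 h (155.0), and Ctsb an ATAC peak over its start at 24 h (269.42) without lamin B1. For Ctsa, a lamin B1 peak lay near the end of the gene at 8 h (53.17), and ATAC peaks lay at the start untreated (76.98) and at 24 h (103.06). Ctsk and Ctss, which were near 0 FPKM, had neither kind of peak. No ChIP or ATAC library of KD cells was analysed here.

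**Figure D5:**
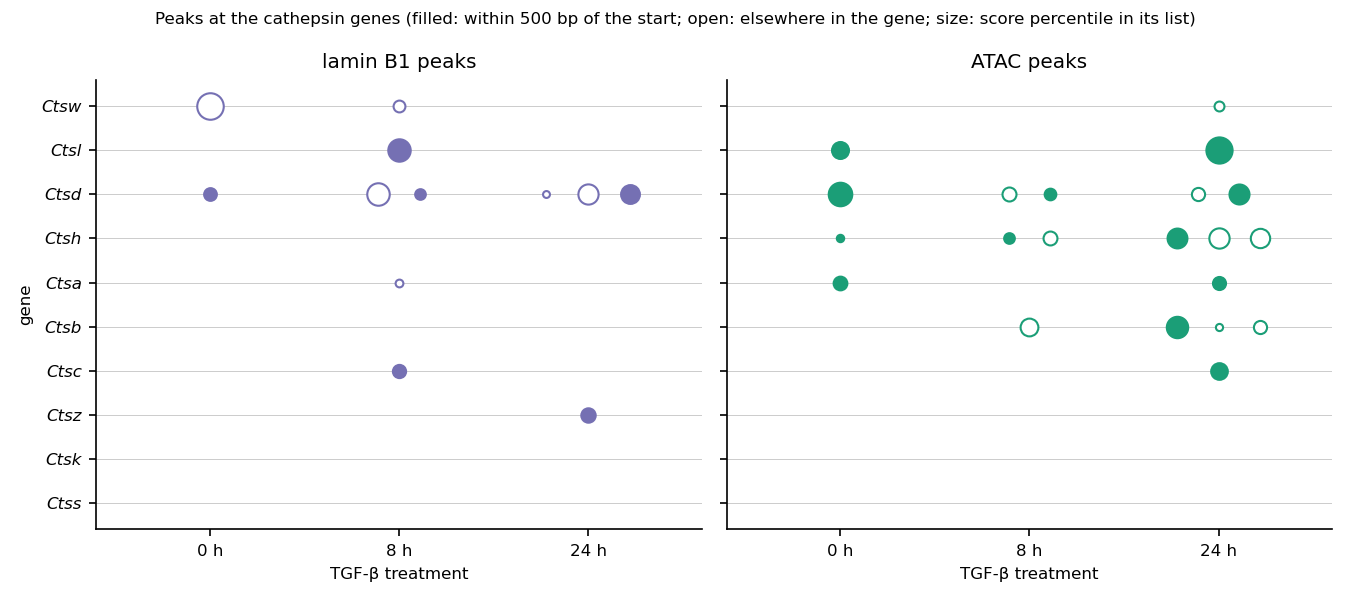
Lamin B1 (left) and ATAC (right) peaks at each of the 10 cathepsins (rows) at 0, 8 and 24 h (columns); filled symbols are peaks within 500 bp of the start, open ones lie elsewhere in the gene, and symbol size gives the share of the list's peaks with a score at or below it. Ctsd has both kinds at every time, Ctsw has lamin B1 at 0 and 8 h and ATAC at 24 h, and Ctsk and Ctss have none.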

How the data were processed

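RNA was measured in NMuMG cells in 18 libraries, 2 per group. The authors deposited FPKM values, 1 column per library, and the processing notes name Bowtie, TopHat, Cufflinks and mm9 without versions. Neither of the 2 tables has a header, and each column was assigned by the order in the table's title. Lmnb1 could check only which shRNA columns are KD, and not the time points or the parental columns. The authors deposited MACS peaks of the lamin B1 ChIP and ATAC libraries on mm9 with a score each, and no counts or depth. Columns of log2(FPKM + 1) were fitted with limma 3.58.1 in R 4.3.3 (eBayes with trend, all libraries of a table in 1 fit). The filter kept genes that reached 1 FPKM in 2 or more libraries of the table (11450 in the shRNA and 11309 in the parental one), with Benjamini-Hochberg adjustment over all of them, and were called under 0.05. "Rose" and "fell" are used for called differences of shRNA libraries. Genes were placed with GENCODE M1 in Python 3.11.15, and 21213 of 24892 symbols matched. The fit was tested on simulated data.

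The members, lists and tests were chosen with earlier results of these data known. Named genes are the 10 members, from each list the 3 largest called rises and falls in control cells at 24 h or in KD against control cells at 8 h, genes within 50 kb of Ctsw, the 5 most like Ctsw, and markers. A gene that this rule names is not reported here. The alternatives tried were quantile normalization, no filter on low values, a constant of 0.1 in place of 1, fitting the compared groups alone, a replicate block, leaving out each library, and other peak rules. A crossed replicate block was added after seeing the data.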

Additional observations from a re-analysis of the deposited data

How the results depend on the processing

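The calls of Ctsw against untreated cells, a gene that passed the filter only through its treated libraries, held in each alternative, the fit with no filter included, with log2 rises of 4.32 to 4.72 at 8 h and 5.76 to 6.16 at 24 h in control cells and 4.51 to 4.54 and 6.04 to 6.46 in KD cells when single libraries were left out, and 5.81, 7.27, 6.01 and 7.76 with an added constant of 0.1. Of 927 values recomputed under an alternative, 841 kept their direction and their side of the threshold, 32 gained and 34 lost a call, and 20 changed sign, and the cause was not tested. Of the 96 differences of single members, 48 changed a call or a sign under at least 1 alternative and 48 under none. The tables hold no counts, so the depth behind low values is unknown.

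In KD against control cells, quantile normalization called 1 member untreated, beside 2302 of all 11450 genes. A fit of only the groups compared called 1 untreated, 7 at 8 h, 2 at 24 h and 2 for the difference in response at 8 h. In the same order these fits called 1109 of 10928, 5655 of 10826, 909 of 10874 and 724 of 11243 genes in all. Without single libraries, the members called in control cells numbered 6 to 7 at 8 h, 3 to 6 at 24 h and 6 from 8 to 24 h, and in KD cells 4 at 8 h and 6 to 8 at 24 h. KD against control gave 1 to 4 untreated, 4 at 8 h and 1 to 6 at 24 h, and the difference in response 0 to 3 and 0 to 4.

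Uncalled values that changed sign with quantile normalization were Ctsc in control cells at 8 h (0.036), Ctsd in KD cells at 8 h (0.0065), and the differences in response of Ctsl (0.021 at 8 h and -0.068 at 24 h) and Ctsw (-0.023 at 8 h). Without single libraries, Ctsd in KD cells at 8 h ran from -0.023 to 0.0017, Ctsa in KD cells at 24 h from -0.022 to 0.35, Ctsd in parental cells at 8 h from -0.0028 to 0.012, and KD against control from -0.35 to 0.049 for Ctsw untreated, -0.071 to 0.35 for Ctsw at 24 h and -0.14 to 0.029 for Ctsb at 24 h. Differences in response ran from -0.030 to 0.52 for Ctsh, -0.13 to 0.062 for Ctsl and -0.18 to 0.21 for Ctsw at 8 h, and from -0.52 to 0.034 for Ctsh and -0.079 to 0.11 for Ctsl at 24 h. For Ctsh the value without control 0 h replicate 1 was a called one (adjusted p = 0.0128).

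The replicate numbers of the labels are not stated to mark a shared culture or day, and the replicate 1 minus 2 deviations of different groups correlated from -0.135 to 0.368. With the replicate block, all-gene calls on the difference in response went from 465 to 284 at 8 h and from 540 to 377 at 24 h, and among the members Ctsd gained a call in control cells at 24 h (adjusted p = 0.049). A crossed replicate block, added after seeing the data, called 1926 against 2254 genes in KD against control cells untreated and 3809 against 4104 at 8 h.

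For lamin B1, requiring a peak within 500 bp of the start left 1 member untreated and 3 at 8 h. Peaks at or above the median score left 1, 2 and 1 in the order of time, and lists of equal length left 2 at 8 h. For ATAC, peaks at or above the median score left 2 untreated and 0 at 8 h, and lists of equal length left 2 at 24 h. The shares of all genes under these rules are not given here, so nothing is read from these counts.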
